A study of Mus musculus with 24 samples.

Results

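A group of 40 genes of the cell cycle and of DNA replication was followed across mouse leukaemias carrying the MLL-AF9 fusion oncogene.
They were chosen by symbol from a list with earlier results of these data known, though the rule itself uses no measured value, and all 40 were among the 24046 genes of the count table and among the 14099 with enough reads to be tested.
By role they fell into 10 regulators of G1 and the G1/S transition, 13 genes of S phase and replication, 15 genes of G2 and mitosis, and 2 inhibitors of cyclin-dependent kinases (CDKs).
S-phase and mitotic genes were treated apart throughout.

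Polyadenylated RNA from bone marrow leukaemia cells of moribund secondary recipients was sequenced in 24 libraries, in 4 sets of 3 control and 3 floxed libraries, no library being shared between sets.
All carried MLL-AF9 and a Cre transgene, so the labels of a set differ only in the floxed alleles.
The VavArid1b set compared Arid1b +/+ VavCre+ with Arid1b fl/fl VavCre+ cells, and the VavArid2 set compared Arid2 +/+ VavCre+ with Arid2 fl/fl VavCre+ cells, Vav being a promoter active throughout the blood lineages.
Arid1b and Arid2 encode subunits of the BAF and PBAF forms of the SWI/SNF chromatin remodelling complex.
In the remaining sets Cre came from MxCre, an interferon-responsive transgene, which was induced from day 21 after transplantation by pIpC, an RNA that provokes interferon, given 3 times at 12.5 µg for each g of mouse.
For these the labels conflict: the samples titled MxA2 are described as Arid1b cells and those titled MxA1b as Arid2 cells (+/+ or fl/fl, MxCre+), so the sets are called MxA2 and MxA1b here after their titles and no deleted gene is assigned to them.
The labels do not say whether libraries of a group came from separate primary leukaemias or separate mice, and p-values therefore measure only the spread between these libraries. Y-linked reads were held by 1 of 3 VavArid2 floxed, 2 of 3 MxA1b control and 1 of 3 MxA1b floxed libraries. The libraries of those groups are thus not all repeats of 1 sample, while in the other groups the spread may be technical.
The samples are bulk marrow, in which fewer cells of a type and less RNA per cell cannot be told apart.

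Progress through G1 is driven by the D-type cyclins with CDK4 and CDK6, which phosphorylate the retinoblastoma protein and release E2F transcription factors.
E2F then switches on cyclin E and the genes that license and copy DNA, among them the MCM helicase, its loaders Cdc6 and Cdt1, and the enzymes that make deoxynucleotides.
Genes of mitosis, such as cyclin B, Cdk1 and the Aurora and Polo kinases, are held back until G2 by the DREAM complex and are then raised by B-Myb and FoxM1 through promoter elements called CHR and CCAAT boxes, while CDK inhibitors such as p27 (Cdkn1b) and p18 (Cdkn2c) act as brakes in G1.

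The S-phase and mitotic genes were compared for these elements, and a few promoters are shown because the results below treat those classes apart.
RefSeq windows of 300 bases on GRCm38.p6, running from 250 bases before to 50 after a start, were given for 34 of the 40 genes, the other 6 being Ccnd1, Ccnd2, Ccne2, Mcm4, Ccna2 and Aurkb.
Both strands were searched for an E2F-like element (TTTCGCGC or TTTGGCGC), a CHR (TTTGAA or TTTAAA) and CCAAT, none of which contains another.
An E2F-like element was in the windows of 5 of 12 S-phase genes (41.7%), 1 of 13 mitotic genes (7.69%) and 0.929% of the 27025 genes with a window.
A CHR was in those of 12 of 13 mitotic genes (92.3%), 4 of 12 S-phase genes (33.3%) and 30.6% of all genes.
CCAAT was in those of 12 of 13 mitotic genes, 9 of 12 S-phase genes (75.0%) and 41.1% of all genes.
A match describes letters and not a bound site.
The 150 bases before the start are printed 5′ to 3′ on the strand of the gene, with matches in capitals, and a match on the other strand appears as its reverse complement.
Cdk1, Plk1, Cenpa, Aurka, Kif11 and E2f2 are shown as the genes with the smallest p that hold a CHR with CCAAT or an E2F-like element, and Mcm6 was added after its matches were seen, as an S-phase example with more than 1 E2F-like element.
The E2f2 stretch lies before an internal start within the gene, and the CHR matches of Aurka lie 17 and 32 bases after its start, outside the stretch.
Mcm6, chr1:128359706-128359855, minus strand: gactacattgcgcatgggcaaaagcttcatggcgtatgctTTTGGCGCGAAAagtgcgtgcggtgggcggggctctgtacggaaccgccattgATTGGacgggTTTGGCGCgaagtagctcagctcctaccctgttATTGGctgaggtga
Cdk1, chr10:69352913-69353062, minus strand: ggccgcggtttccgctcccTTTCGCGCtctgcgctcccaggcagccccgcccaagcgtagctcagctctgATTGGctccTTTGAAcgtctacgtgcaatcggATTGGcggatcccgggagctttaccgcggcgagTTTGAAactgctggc
Plk1, chr7:122159285-122159434, plus strand: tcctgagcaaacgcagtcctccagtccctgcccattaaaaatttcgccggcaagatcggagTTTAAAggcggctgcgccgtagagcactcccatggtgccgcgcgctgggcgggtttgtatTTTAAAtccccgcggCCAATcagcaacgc
Cenpa, chr5:30666736-30666885, plus strand: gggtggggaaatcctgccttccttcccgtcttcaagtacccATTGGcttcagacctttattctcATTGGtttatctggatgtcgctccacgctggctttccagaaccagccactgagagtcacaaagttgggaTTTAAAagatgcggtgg
Aurka, chr2:172370571-172370720, minus strand: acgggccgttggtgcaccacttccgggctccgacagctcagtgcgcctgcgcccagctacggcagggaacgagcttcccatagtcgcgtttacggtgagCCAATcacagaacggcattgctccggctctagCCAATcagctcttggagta
Kif11, chr19:37376232-37376381, plus strand: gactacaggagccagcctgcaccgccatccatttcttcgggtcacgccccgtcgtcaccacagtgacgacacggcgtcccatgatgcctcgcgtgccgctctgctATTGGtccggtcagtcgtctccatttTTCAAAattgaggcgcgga
E2f2, chr4:136180632-136180781, plus strand: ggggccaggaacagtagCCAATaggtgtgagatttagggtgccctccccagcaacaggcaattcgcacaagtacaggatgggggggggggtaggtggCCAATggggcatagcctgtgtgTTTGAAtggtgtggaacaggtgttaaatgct
In Mcm6 the E2F-like matches begin 110, 106 (on the other strand, overlapping the first) and 47 bases before the start, and no CHR was found.
In Cdk1 an E2F-like match 131 bases before the start stands ahead of CHR matches at 71 and 15 bases, and Plk1, Cenpa, Aurka, Kif11 and the printed window of E2f2 hold CHR and CCAAT matches only.
The other window of E2f2, at its first start, holds an E2F-like match 39 bases after the start and no CHR.

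Library totals ran from 12069153 to 38315410 counts, the VavArid2 set being the deepest, and the 40 genes took 0.579% to 0.997% of the counts.
Counts over the whole of Arid1b or Arid2 did not separate the genotypes by test: floxed VavArid1b libraries held 140 to 184 CPM (read counts scaled to library size) of Arid1b against 186 to 367 in controls, edgeR adjusted p = 0.407, and floxed VavArid2 libraries held 197 to 290 CPM of Arid2 against 218 to 443, adjusted p = 0.802.
Which exons are floxed is not in the labels, so these counts may lie outside the deleted part and check nothing.
The pan-leukocyte marker Ptprc (394 to 790 CPM) and the myeloid marker Itgam (262 to 994) were high in every library, and the leukaemia gene Hoxa9 spanned 20.1 to 444 CPM.
The T cell marker Cd3e was at most 7.90 CPM.
Of the erythrocyte markers, Hbb-b1 reached 283 CPM in MxA2 floxed 3 and 205 in MxA1b floxed 2, against at most 24.1 in the other 22 libraries, and Slc4a1 reached 279 and 62.3 against at most 15.6.
Libraries that stand apart number 3.
Control 3 of the VavArid1b set had the highest S-phase level of all 24.
Floxed 3 of the MxA2 set had 12330 CPM over 11 granulocyte markers, against 2540 to 5237 in the other libraries of its set, and 1283 CPM over 13 erythroid markers, against 98.1 to 246 (globin genes listed in pairs with identical counts, such as Hbb-b1 and Hbb-bs, are each in this sum).
Floxed 2 of the MxA1b set had 21800 CPM over the granulocyte markers, and its genes deviated from the 24-library mean by length, short genes being high (Spearman's rho -0.40 across genes of that library, as a description, against -0.17 to 0.20 in the other 23).
Results that rest on these libraries are given with and without them.

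Per unit of exon length, the members spanned a wide range of levels. Exon length was merged over all annotated transcripts of a gene, so the order of genes can depend on that choice.
Averaged over 24 libraries, the replication clamp Pcna was the most abundant at 117 RPKM (CPM divided by exon length in kilobases), the MCM helicase subunits lay between 42.9 (Mcm2) and 99.7 (Mcm6), and the deoxynucleotide enzymes ran from Tyms at 9.32 to Rrm2 at 76.1.
Among mitotic genes the order ran from Ccnb1 (cyclin B1) at 16.8 RPKM to Ccnb2 at 91.3, with the proliferation antigen Mki67 at 80.9 and topoisomerase Top2a at 74.8.
Cdk4 stood at 69.6 RPKM against 19.2 for its partner kinase Cdk6, and cyclin D3 (Ccnd3) at 38.5 against 13.8 for Ccnd1 and 4.10 for Ccnd2.
The SD of log2 CPM over the 24 libraries was 1.99 for Ccnd1, 1.67 for Ccnd2 and 1.63 for Cdkn2c, at the 97.4, 94.8 and 94.4 percentiles of all genes tested.
It had a median of 0.34 over the S-phase genes and 0.27 over the mitotic genes, against 0.40 over all genes.
The G1 kinase Cdk2, at 0.20, and E2f1, also at 0.20, varied least.
Across all 8 groups together, 1125 genes (7.98%) differed at an edgeR adjusted p under 0.05, the threshold used to call a gene throughout, and 2 of the 40 members were among them: Ccnd2 (adjusted p = 0.00726) and Ccnd1 (adjusted p = 0.0318).
Of the remaining 38, Cdk1 came closest (adjusted p = 0.130) and Cdk6 had the largest (adjusted p = 0.999).

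In the VavArid1b set the D-type cyclins Ccnd1 and Ccnd2 and the transcription factor E2f2 rose in floxed cells, while 13 of 13 S-phase genes had lower fitted levels without 1 passing the test.
Of all genes, 6.57% were called in this set (496 higher, 3.52%, and 430 lower, 3.05%), against 3 of 40 members, all higher, and 16.3% of all genes had floxed libraries above every control.
Ccnd1, on chromosome 7 (144929931 to 144939925 of GRCm38, minus strand), stood at 5.01, 19.0 and 6.49 CPM in the controls and at 175, 177 and 81.3 in the floxed libraries.
The lowest floxed library lay well above the highest control.
Its log2 fold change, floxed over control, was 3.83 ± 1.01 (SE), with an edgeR adjusted p of 0.0321.
Ccnd2, on chromosome 6 (127125162 to 127152193, minus strand), stood at 3.34, 7.20 and 5.48 CPM in the controls and at 130, 207 and 79.8 in the floxed libraries.
Again no value was shared between the groups, and the log2 fold change was 4.70 ± 0.84, edgeR adjusted p = 0.00664.
E2f2, an activator E2F, on chromosome 4 (136172394 to 136196057, plus strand), stood at 48.7, 38.9 and 52.5 CPM in the controls and at 64.5, 169 and 176 in the floxed libraries.
The floxed libraries were all higher, but floxed 1 only narrowly, and the log2 fold change was 1.55 ± 0.44, edgeR adjusted p = 0.0434.
The other 7 regulators were not called: Ccnd3 had 255, 302 and 197 CPM in controls and 238, 449 and 421 in floxed libraries, overlapping ranges, and Cdk4, Cdk6, Ccne1, Ccne2, Cdk2 and E2f1 had log2 fold changes between -0.39 and -0.10.

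**Figure D1:**
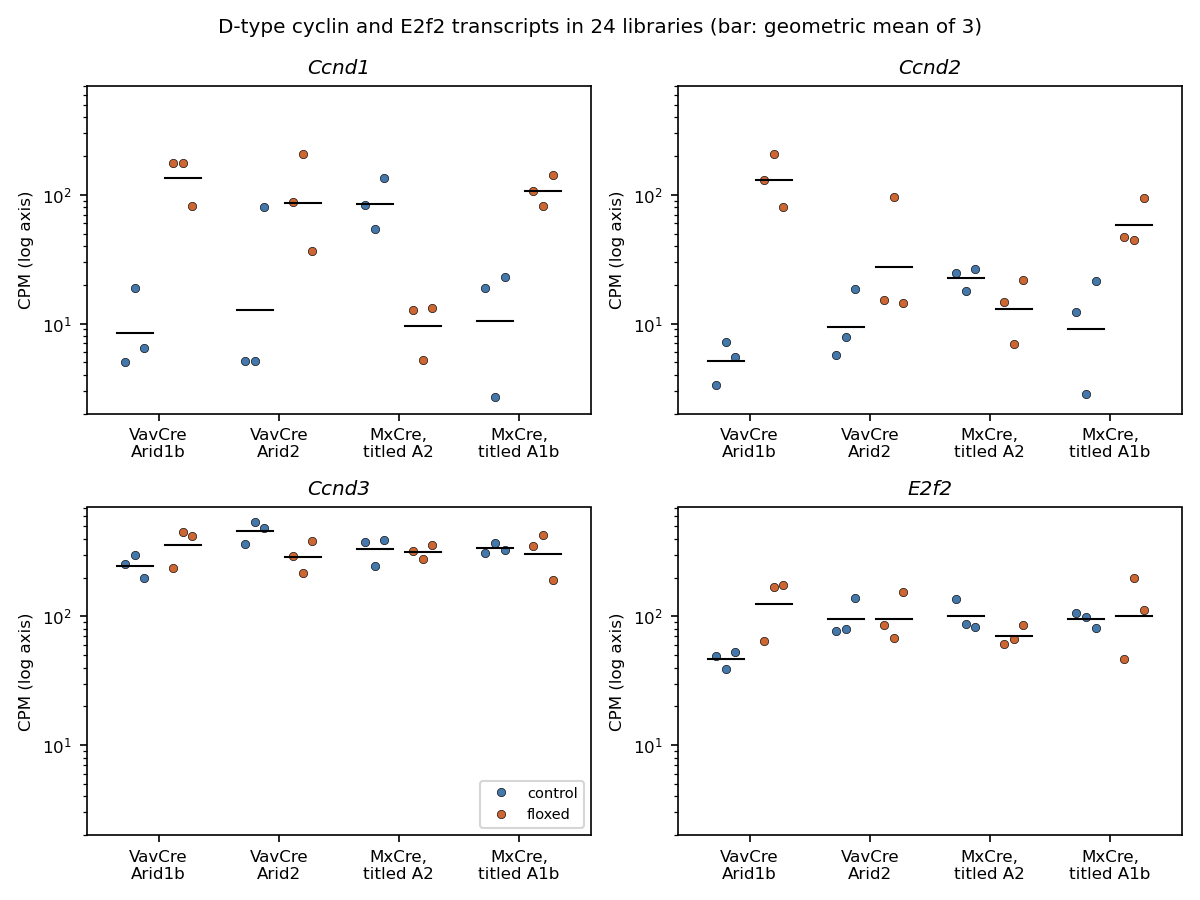
CPM (log axis) of Ccnd1, Ccnd2, Ccnd3 and E2f2 in each of the 24 libraries, controls in blue and floxed in orange, with bars at the geometric mean of 3. The floxed libraries of the VavArid1b set lie above every control of their set for Ccnd1, Ccnd2 and E2f2, Ccnd1 is lower in the floxed libraries of the MxA2 set, and Ccnd3 overlaps in every set.

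Ccnd2 was called in 5 of the 6 fits that left out 1 library of this set, and was at adjusted p = 0.0576 without control 1.
Ccnd1 was called in 1 of the 6 (adjusted p = 0.0409 without control 2) and stood between 0.0557 and 0.135 in the others, and E2f2 was called only without floxed 1 (adjusted p = 0.0222), standing between 0.096 and 0.162 otherwise.
All 3 controls and none of the floxed libraries held Y-linked reads (Kdm5d above 10 CPM), so sex and genotype cannot be told apart within this set; with a term for Y-linked reads estimated over all 24 libraries, Ccnd2 kept its call (log2 fold change 6.5, adjusted p = 0.00722), while Ccnd1 had 5.36 (0.0537) and E2f2 0.68 (0.558).
Markers of dendritic cells moved with the cyclins: 8 of 8 were detected, and their sum was 74.8 to 276 CPM in controls and 1227 to 3041 in floxed libraries, with Cd74 at 2.69 to 15.1 against 114 to 1252 and Siglech, at 0 in control 1, reaching at most 25.0; their part in the result was not tested.
The 9 monocyte markers summed to 656 to 1096 CPM in controls and 1702 to 3223 in floxed libraries.

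The deposited counts carry no stated strand setting, which bears on the cyclins because exons of Ccnd1 overlap those of Lto1 on the opposite strand by 1100 bases.
Lto1, listed under its older symbol Oraov1, stood at 19.8 to 27.7 CPM in all 24 libraries, below the Ccnd1 value of every floxed VavArid1b library but above that of its controls.
The antisense gene 9330179D12Rik over Ccnd2 exons stood at no more than 1.28 CPM anywhere.

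The composition of D-type cyclin transcripts shifted accordingly.
Scaled by exon length and summed over Ccnd1, Ccnd2 and Ccnd3, the share of Ccnd1 with Ccnd2 was 4.66%, 12.2% and 8.02% in the VavArid1b controls and 65.4%, 53.8% and 34.9% in the floxed libraries.
The summed level went from between 24.4 and 39.2 RPKM to between 73.7 and 111.
In the floxed libraries Ccnd1 gave 17.3 to 37.5 RPKM, less than Ccnd3 in floxed 3 and floxed 4 (51.2 and 48.0) and more than Ccnd3 in floxed 1 (37.2 against 27.1). That order depends on the exon lengths used (8775 bases for Ccnd3, 4709 for Ccnd1), as do the shares. In CPM, Ccnd3 was above Ccnd1 in floxed 1 (238 against 175).

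**Figure D2:**
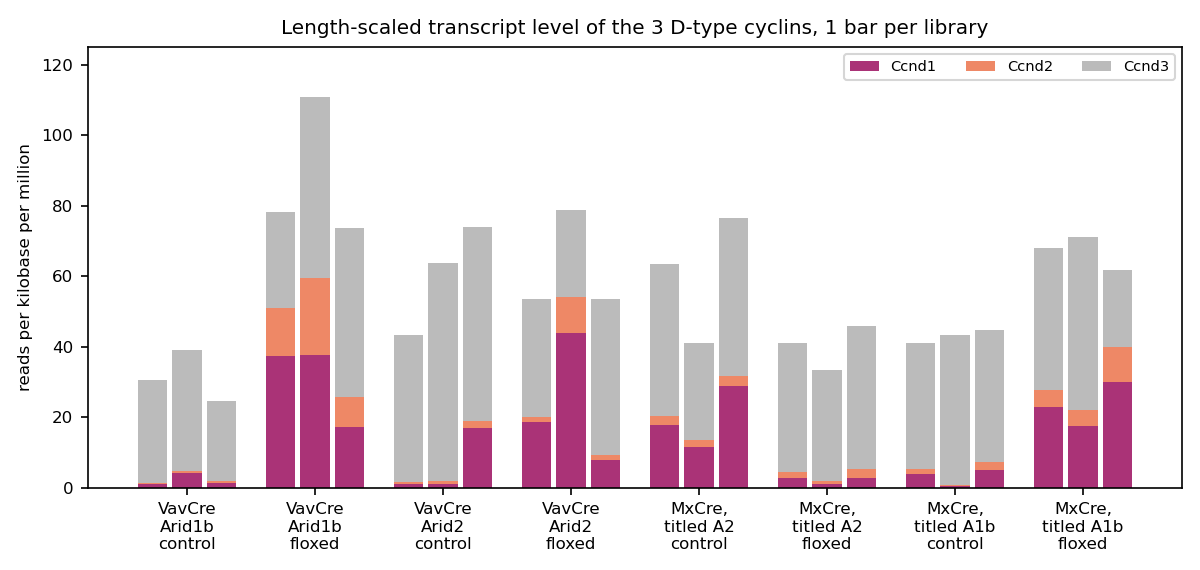
Length-scaled transcript levels (RPKM) of Ccnd1, Ccnd2 and Ccnd3 stacked for each library, grouped by set and genotype. Shares depend on the exon lengths used, which merge all annotated transcripts of a gene. Ccnd3 makes up most of the sum in the VavArid1b controls, while Ccnd1 with Ccnd2 reaches 34.9% to 65.4% in the floxed libraries of that set.

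The replication genes of the VavArid1b set leaned the other way, with a median log2 fold change of -0.58 over the 13 genes against -0.06 over all genes tested, of which 55.1% were below 0.
Floxed and control libraries did not overlap, with floxed lower, for 12 of the 13, against 16.1% of all genes.
The exception was Cdt1, a helicase loader, at 120, 149 and 224 CPM in controls and 140, 97.3 and 137 in floxed libraries.
An unadjusted p under 0.05 was reached by 10 of the 13, against 24% of all genes, and 0 passed the adjusted threshold in edgeR.
Mcm5, the MCM subunit with the smallest p, stood at 459, 430 and 519 CPM in controls and at 328, 226 and 363 in floxed libraries, without overlap, a log2 fold change of -0.62 ± 0.24 and an adjusted p of 0.119.
Rrm2, the regulated subunit of ribonucleotide reductase, stood at 205, 204 and 467 CPM in controls and at 154, 127 and 189 in floxed libraries (log2 fold change -0.90 ± 0.36, adjusted p = 0.133).
Control 3 was far above the other controls, and without that library the Rrm2 value was -0.35 and the S-phase median -0.37.
The other 5 MCM subunits lay between -0.66 (Mcm2) and -0.49 (Mcm4), Pcna at -0.26, Cdc45 at -0.55, Cdc6 and Tyms at -0.59 and Rrm1 at -0.58.
limma voom called Mcm2 (log2 fold change -0.59, adjusted p = 0.0237) and Mcm5 (-0.51, 0.0319) lower, in a fit that called 14.8% of all genes lower, and DESeq2 called 0 of the 13.

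Mitotic genes of the same set had a median of -0.20 and 14 of 15 below 0, and only Aurka and Bub1 had non-overlapping groups, 2 of 15 against 16.1% of all genes with floxed lower.
This count does not exceed the background.
Aurka, the kinase of spindle poles, stood at 94.1, 71.4 and 116 CPM in controls and at 71.4, 61.4 and 67.2 in floxed libraries (log2 fold change -0.50 ± 0.23, adjusted p = 0.191), control 2 and floxed 1 being equal as rounded.
Bub1, a spindle checkpoint kinase, stood at 78.7, 76.1 and 108 CPM in controls and at 57.6, 63.0 and 68.9 in floxed libraries (-0.47 ± 0.27, adjusted p = 0.302).
For each, the distance between the nearest control and floxed libraries was small beside the spread among controls.
Cenpa, the centromeric histone, was the exception in direction, at 0.07.
Mki67 (-0.14) and Top2a (-0.20) overlapped between groups.
Without control 3 the mitotic median was -0.04, with 10 of 15 below 0.

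Of the CDK inhibitors, Cdkn2c (p18) stood at 36.5, 90.9 and 14.8 CPM in the VavArid1b controls and at 261, 262 and 261 in the floxed libraries.
The floxed libraries were close together and all above the scattered controls, yet with the spread Cdkn2c showed across all groups the log2 fold change of 2.46 ± 1.16 had an adjusted p of 0.201.
Voom, which weights libraries, gave 2.42 with an adjusted p of 0.0107.
Cdkn1b (p27) stood at 86.4, 109 and 66.4 CPM against 98.6, 143 and 123, overlapping, at 0.47 ± 0.26 and an adjusted p of 0.283.

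Among cell cycle genes outside the 40, chosen as lists of 38 replication, 35 mitotic and 30 regulatory genes, 1 fell and 1 rose in this set.
That is 2 of 103, a smaller share than the 6.57% of all genes.
Chaf1b, a subunit of the chromatin assembly factor that works behind the fork, fell from 43.9 to 59.7 CPM in controls to 22.7 to 36.9 in floxed libraries (log2 fold change -0.82 ± 0.21, edgeR adjusted p = 0.0266).
Cdkn2d (p19), a CDK4 and CDK6 inhibitor of the same family as Cdkn2c, rose from 43.9 to 46.3 CPM to 68.4 to 105 (0.98 ± 0.26, adjusted p = 0.0341).
The other replication genes had 35 of 38 below 0 and a median of -0.38, and the other mitotic genes 30 of 35 below 0 and a median of -0.22, with 0 of 35 called, Tpx2 and Cdca8 having the smallest p (-0.38 and -0.40, adjusted p = 0.199 and 0.201).

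**Figure D3:**
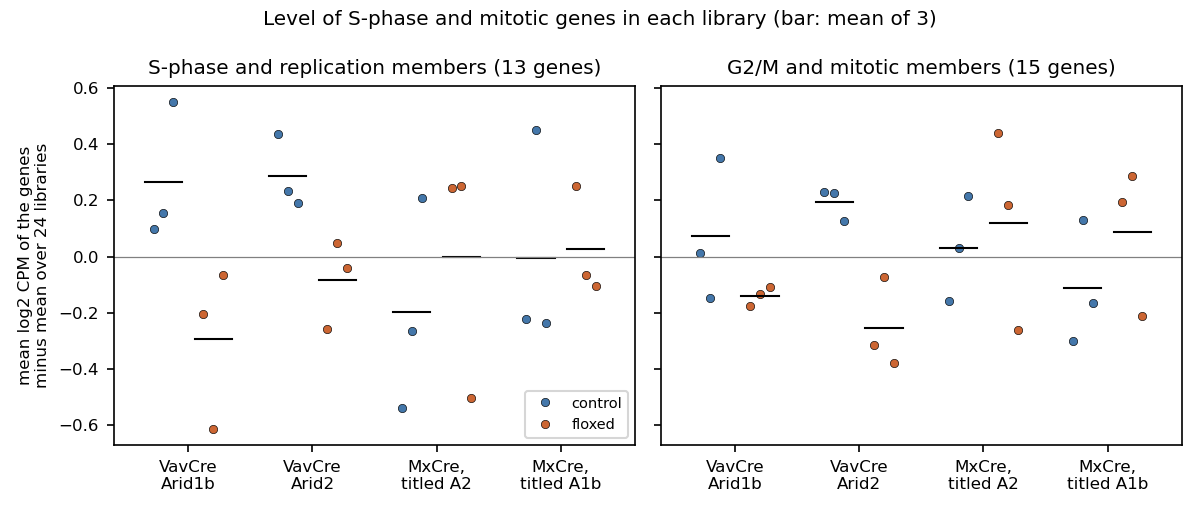
Mean log2 CPM of the 13 S-phase genes and the 15 mitotic genes in each library, each gene first centred on its mean over 24 libraries, with bars at the mean of 3. Floxed libraries lie below every control for both gene groups in the VavArid2 set and for the S-phase genes in the VavArid1b set, and overlap in both MxCre sets.

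In the VavArid2 set the mitotic genes had the clearest downward lean, with 15 of 15 below 0 and a median log2 fold change of -0.43 against 0.00 over all genes, of which 49.5% were below 0, though no member passed the test across the 24 libraries.
Here 1.31% of all genes were called (35 higher, 0.248%, and 150 lower, 1.06%) and 0 of the 40 members, of which 8 had an unadjusted p under 0.05 against 19.5% of all genes.
Of the 15 mitotic genes, 13 had floxed libraries below every control, against 18.2% of all genes, and 4 had an unadjusted p under 0.05.
Plk1, the Polo kinase of mitotic entry and exit, stood at 112, 130 and 106 CPM in controls and at 71.9, 75.2 and 69.0 in floxed libraries.
The groups were far apart relative to their own spread, and the log2 fold change was -0.68 ± 0.23, edgeR adjusted p = 0.126.
Aurka stood at 98.6, 117 and 85.3 CPM in controls and at 69.6, 66.4 and 59.0 in floxed libraries (-0.63 ± 0.23, adjusted p = 0.142).
Kif11, the motor that separates spindle poles (-0.58), Birc5, the chromosomal passenger survivin (-0.52), and Cdk1 (-0.52) followed, each without overlap, while Aurkb (-0.28) and the anaphase activator Cdc20 (-0.26) moved least.

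The S-phase genes of the VavArid2 set had 12 of 13 below 0 and a median of -0.29, with 7 of the 13 non-overlapping and lower, against 18.2% of all genes.
An unadjusted p under 0.05 was reached by 2 of the 13, no more than the 19.5% of all genes, and without control 1 the median was -0.16.
Tyms, thymidylate synthase, stood at 84.8, 79.7 and 70.1 CPM in controls and at 40.3, 38.4 and 37.4 in floxed libraries.
Every floxed library was lower than every control, and the log2 fold change was -1.02 ± 0.28, adjusted p = 0.0728.
Rrm1 stood at 500, 407 and 396 CPM in controls and at 280, 318 and 268 in floxed libraries (-0.59 ± 0.25, adjusted p = 0.197), and Rrm2 had -0.73 ± 0.36 (0.265).
Cdc45, a component of the active replicative helicase, had -0.54 without overlap (adjusted p = 0.344).
The 6 MCM subunits lay between -0.32 (Mcm3) and -0.18 (Mcm6), and of these only Mcm3 had non-overlapping groups.

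The number of members called differed between fits.
Fitted on the 6 libraries of the set alone, edgeR called 11 members, Plk1, Aurka, Bub1, Cdk1, Kif11, Birc5, Tyms, Rrm1, Rrm2 and Cdc45 lower (smallest adjusted p = 0.0169, for Tyms) and Cdkn1b higher (0.0446), that is 27.5% of the 40 against 7.6% of all genes.
Without the 3 libraries that stand apart, none of which belongs to this set, Tyms (adjusted p = 0.0201) and Plk1 (0.0483) were called, 5% of the members against 7.99% of all genes.
DESeq2 called Tyms (0.0138), 2.5% of the members against 7.33% of all genes, and voom called 12 of the 15 mitotic genes lower (80%) against 17.8% of all genes.

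G1 regulators of the VavArid2 set were scattered.
Ccnd1 stood at 5.08, 5.11 and 80.3 CPM in controls and at 87.1, 207 and 36.7 in floxed libraries.
Control 3 fell within the range of the floxed libraries, and the log2 fold change was 1.87 ± 0.93 (adjusted p = 0.276).
Without control 3 it was 4.44 and called (adjusted p = 0.0270).
Ccnd2 stood at 5.66, 7.84 and 18.5 CPM in controls and at 15.3, 96.5 and 14.4 in floxed libraries (1.98 ± 0.74, adjusted p = 0.156), and without floxed 2, the only library above 19 CPM, it was 0.48.
E2f2 stood at 76.9, 79.0 and 139 CPM in controls and at 85.4, 67.4 and 154 in floxed libraries, overlapping (0.06 ± 0.43, adjusted p = 0.956).
Ccnd3 stood at 365, 543 and 482 CPM in controls and at 293, 217 and 388 in floxed libraries (-0.63 ± 0.29, adjusted p = 0.239).
The share of Ccnd1 with Ccnd2 among length-scaled D-type cyclin transcripts was 3.89%, 3.01% and 25.7% in controls and 37.6%, 68.6% and 17.4% in floxed libraries, again overlapping through control 3.
Cdkn1b stood at 78.0, 79.7 and 77.0 CPM in controls and at 95.1, 116 and 120 in floxed libraries, all higher, as in 17.9% of all genes (0.49 ± 0.26, adjusted p = 0.302).
Cdkn2c stood at 32.9, 218 and 40.3 CPM in controls and at 363, 251 and 54.2 in floxed libraries, overlapping (1.20 ± 1.11, adjusted p = 0.587).
This value was 0.67 without floxed 1 and 2.61 without control 2.

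Granulocyte markers moved with the cell cycle genes in this set: 11 of 11 were detected in each group, and their sum was 4254 to 9784 CPM in controls and 242 to 1071 in floxed libraries, with their part in the result not tested.
B lineage markers summed to 23.5 to 32.6 CPM in controls and 2.72 to 6.09 in floxed libraries. The B lineage sum of the controls was mostly Cd79b (27.5, 20.7 and 26.7 CPM). Erythroid markers summed to 144 to 213 CPM in controls and 73.9 to 108 in floxed libraries, and dendritic markers to 88.1 to 124 and 221 to 1123.
None of these sums overlapped between the groups, and their part was not tested either. The erythroid sum was mostly Tfrc (133, 193 and 137 CPM in controls, 65.7, 79.7 and 81.1 in floxed libraries). Hbb-b1 overlapped, at 2.6, 4.4 and 3.3 CPM against 1.5, 7.0 and 1.7. In floxed libraries the dendritic sum was mostly Flt3 (730, 1066 and 121 CPM, against 14.4, 36.7 and 17.5 in controls). Of the other dendritic markers, Cd74 overlapped and Itgax was lower in every floxed library.
Y-linked reads were held by 0 controls and 1 floxed library, and with a Y term the mitotic median was -0.43.
Outside the 40 genes, none of the 103 listed cell cycle genes was called.
The smallest p belonged to Cdc25a, the phosphatase that activates CDK2, at 127 to 152 CPM in controls and 56.2 to 74.9 in floxed libraries (-1.13 ± 0.31, adjusted p = 0.0725), and to Cdkn1c (p57), at 21.1 to 41.2 against 1.89 to 4.82 (-3.15 ± 0.88, adjusted p = 0.0773).
The 35 other mitotic genes had 32 below 0, a median of -0.31 and 21 non-overlapping and lower (18.2% of all genes were), with Prc1 and Spc25 at the smallest p (-0.50 and -0.72, adjusted p = 0.107 and 0.120).
The 38 other replication genes had 34 below 0 and a median of -0.23, with the clamp loader subunits Rfc3 (-0.62, adjusted p = 0.163) and Rfc5 (-0.42, 0.201) at the smallest p.

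**Figure D4:**
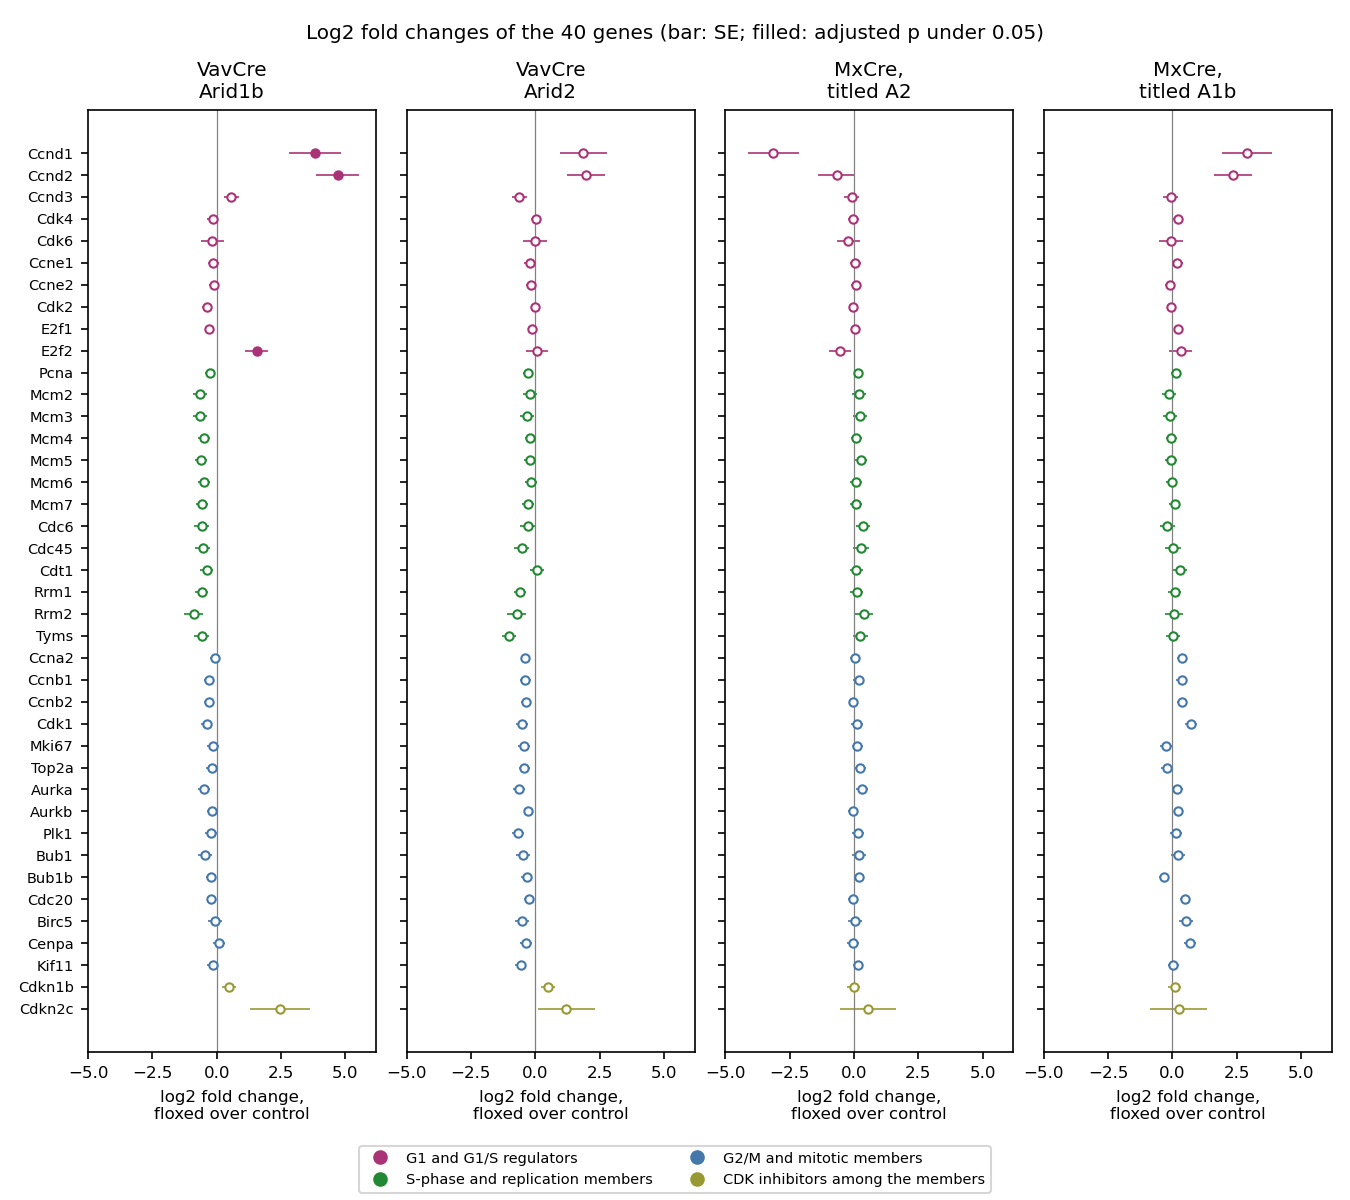
Log2 fold changes, floxed over control, of the 40 genes in the 4 sets, coloured by role, with bars of 1 SE and filled points where the edgeR adjusted p was under 0.05. Filled points appear only for Ccnd1, Ccnd2 and E2f2 in the VavArid1b set, S-phase genes lie left of 0 in that set, and mitotic genes lie left of 0 in the VavArid2 set.

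In the MxA2 set no member passed the edgeR test, and Ccnd1 had lower values in every floxed library than in any control.
Called genes made up 0.0284% of all genes (2 higher and 2 lower, 0.0142% each), and 0 of the 40 members, of which 1 had an unadjusted p under 0.05 against 10.6% of all genes.
Ccnd1 stood at 83.0, 54.1 and 136 CPM in controls and at 12.8, 5.23 and 13.3 in floxed libraries.
Every control was above every floxed library, in the opposite direction to the VavArid1b set, and the log2 fold change was -3.13 ± 0.98 with an edgeR adjusted p of 0.280.
DESeq2 called it (-3.13, adjusted p = 0.0249) in a fit calling 0.773% of genes lower, as did voom (-3.65, adjusted p = 0.0224), which called 4.67% lower.
Ccnd2 stood at 24.5, 17.9 and 26.5 CPM in controls and at 14.8, 6.89 and 21.9 in floxed libraries, overlapping (-0.66 ± 0.72, adjusted p = 0.809).
The share of Ccnd1 with Ccnd2 among D-type cyclin transcripts was 31.9%, 32.5% and 41.4% in controls and 10.4%, 5.50% and 11.2% in floxed libraries.
E2f2 stood at 137, 87.8 and 82.8 CPM in controls and at 60.9, 66.3 and 85.5 in floxed libraries, overlapping (-0.53 ± 0.43, adjusted p = 0.720).
Ccnd1 was thus the only one of the 40 with non-overlapping groups, against 7.78% of all genes with floxed lower and 7.18% with floxed higher.
No control and all 3 floxed libraries held Y-linked reads, so sex and the floxed alleles cannot be told apart here either.
Markers of other cells also separated the groups.
Erythroid markers summed to 98.1 to 145 CPM in controls and 201 to 1283 in floxed libraries, T and NK markers to 10.4 to 14.7 and 19.2 to 79.2, and B lineage markers to 39.9 to 47.6 and 10.3 to 32.6.
Their part in the Ccnd1 difference was not tested.

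All 13 S-phase genes were above 0 in the MxA2 set, at a median of 0.21, where 51.8% of all genes were above 0, none with non-overlapping groups.
Without control 1 that median was 0.07, with 8 of 13 above 0, and without floxed 1 or floxed 2 it was 0.08.
Cdc6 stood at 35.6, 46.0 and 79.0 CPM in controls and at 77.9, 77.7 and 47.8 in floxed libraries (0.34 ± 0.28, adjusted p = 0.720), and Mcm5 at 247, 288 and 424 against 445, 451 and 271 (0.28 ± 0.24, adjusted p = 0.726).
In both genes control 3 was high and floxed 3 low.
Without control 1 the values were 0.12 for Cdc6 and 0.13 for Mcm5, and without control 3 they were 0.73 and 0.54.
The mitotic genes had 11 of 15 above 0 and a median of 0.14, with Aurka at 73.5, 72.2 and 91.5 CPM against 124.7, 94.8 and 73.4 (0.31 ± 0.23, adjusted p = 0.684) and Top2a at 499, 565 and 799 against 864, 764 and 595 (0.26 ± 0.22, adjusted p = 0.738).
Cdkn2c stood at 51.4, 185 and 42.4 CPM in controls and at 8.59, 13.9 and 385 in floxed libraries (0.54 ± 1.10, adjusted p = 0.909).
Floxed 3, the library rich in granulocyte and erythroid markers, held the highest Cdkn2c of all 24 and the lowest S-phase level of its group.
Without it the Cdkn2c value was -3.04 (adjusted p = 0.203), the S-phase median 0.39 and the mitotic median 0.33 with 15 of 15 above 0, no member being called; without floxed 1 the mitotic median was -0.07 and without control 1 it was 0.04.
Cdkn1b stood at 120, 107 and 68.1 CPM in controls and at 84.0, 68.2 and 139 in floxed libraries (-0.01 ± 0.26, adjusted p = 0.994).
Of the 103 other cell cycle genes 0 were called, the smallest p being that of Kif23, a motor of cytokinesis, at 120 to 149 CPM in controls and 85.5 to 105 in floxed libraries (-0.55 ± 0.13, adjusted p = 0.210).
Cdkn1a (p21) had -1.57 ± 0.51 and Cdkn2a (the p16 and p19Arf locus) -2.43 ± 0.80, each with an adjusted p of 0.292.
The other replication genes had 33 of 38 above 0 and a median of 0.16, with Rfc1 (0.34, adjusted p = 0.426) and Pola1, a subunit of the primase polymerase (0.49, 0.536), at the smallest p.

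In the MxA1b set Ccnd1 and Ccnd2 were higher in floxed cells and several mitotic genes leaned upward, without a member passing the edgeR threshold.
Of all genes 1 (0.00709%) was called, higher, and 0 lower (0%), and 0 of the 40 members, of which 5 had an unadjusted p under 0.05 against 17.4% of all genes.
Ccnd1 stood at 18.8, 2.68 and 23.0 CPM in controls and at 107, 81.8 and 141 in floxed libraries, with no overlap (2.89 ± 0.97, adjusted p = 0.156).
Ccnd2 stood at 12.3, 2.84 and 21.3 CPM in controls and at 46.8, 44.5 and 94.1 in floxed libraries, also with no overlap (2.35 ± 0.75, adjusted p = 0.147).
Control 2 was the lowest of all 24 libraries for both genes, and without it the values were 2.40 and 1.89.
DESeq2 called both (adjusted p = 0.0286 and 0.0296) among 1.99% of genes called higher, and voom called neither.
The share of Ccnd1 with Ccnd2 among D-type cyclin transcripts was 12.9%, 2.01% and 16.1% in controls and 40.8%, 31.1% and 64.7% in floxed libraries.
The third member of the class with floxed libraries above every control was E2f1, at 77.3 to 92.0 against 97.0 to 101 CPM (0.23 ± 0.16, adjusted p = 0.471).
Dendritic markers did not separate these groups, at 122 to 514 CPM in controls and 35.4 to 555 in floxed libraries.

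The mitotic genes of the MxA1b set had 12 of 15 above 0 and a median of 0.22, and 3 had floxed libraries above every control, against 6.55% of all genes (7.55% had floxed lower, and 50.7% were above 0).
Those were Cdk1, Ccnb1 (0.36) and Cdc20 (0.49).
Cdk1, the mitotic kinase, stood at 80.7, 111 and 82.7 CPM in controls and at 129, 198 and 124.7 in floxed libraries (0.72 ± 0.23, adjusted p = 0.147).
Cenpa stood at 88.2, 87.3 and 93.1 CPM in controls and at 91.6, 225 and 112 in floxed libraries (0.67 ± 0.24, adjusted p = 0.168).
Floxed 2 was high for both, and without it Cenpa had 0.18 and Cdk1 0.47.
Without floxed 1, in a fit that called 10.7% of all genes, 3 of the 40 members were called: Cenpa (0.91, adjusted p = 0.0182) and Cdk1 (0.81, 0.0469) higher and Mki67 (-0.64, 0.0434) lower.
The longest mitotic genes, Mki67 (10061 exon bases, -0.26) and Top2a (9013, -0.21), were below 0, as was Bub1b (4275, -0.32), and the other 12 were above 0, from the long Kif11 (7461, 0.03) to the short Ccnb2 (1531, 0.37).
By this measure Cdk1 (4934) and Cenpa (5860), with the highest values, are longer than Bub1b. These lengths merge the exons of all annotated transcripts of a gene and can exceed the length of the transcript expressed.
In floxed 2, Mki67 had its lowest value of all 24 libraries, 484 CPM, and Birc5 its highest, 191 CPM.
Without floxed 2 the mitotic median was 0.10 with 9 of 15 above 0, Birc5 had -0.03 and Mki67 -0.05, and without control 2 or floxed 3 the median was 0.42 or 0.40.
The part of transcript length in the mitotic values of this set was not tested.

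**Figure D5:**
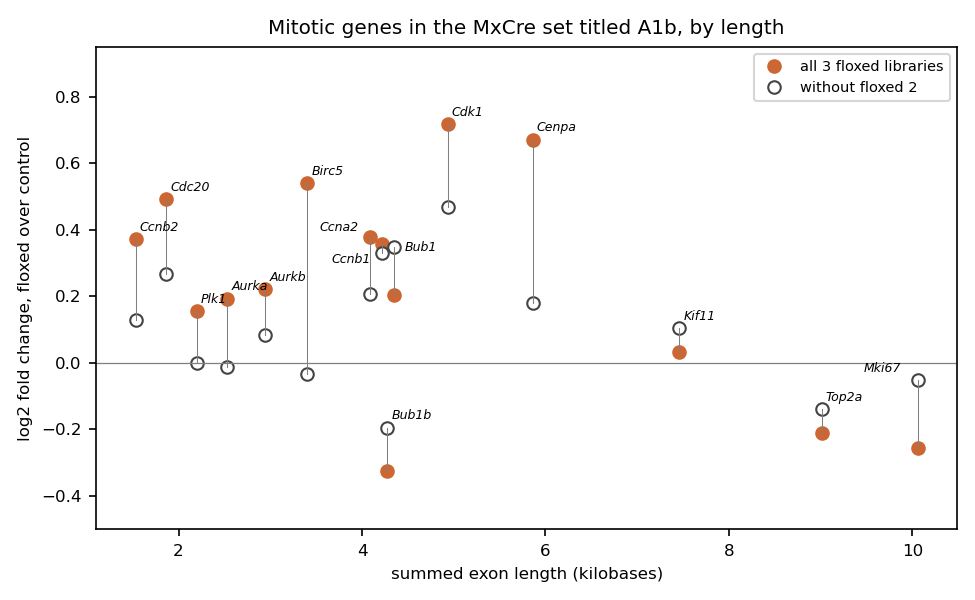
Log2 fold changes, floxed over control, of the 15 mitotic genes in the MxA1b set against summed exon length in kilobases, with all 3 floxed libraries (filled) and without floxed 2 (open). Leaving out that library brings Cenpa from 0.67 to 0.18, Birc5 from 0.54 to -0.03 and Mki67 from -0.26 to -0.05.

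The S-phase genes of this set lay around 0, with 7 of 13 above it, a median of 0.01 and no gene with non-overlapping groups.
The median ran from -0.21 without floxed 1 to 0.22 without control 2.
Cdt1 stood at 99.8, 167 and 115 CPM in controls and at 148, 153 and 166 in floxed libraries (0.29 ± 0.26, adjusted p = 0.591).
Pcna stood at 248, 305 and 265 CPM in controls and at 283, 372 and 238 in floxed libraries (0.13 ± 0.18, adjusted p = 0.749), and without floxed 2 it had -0.07.
For Cdt1 all floxed libraries lay within the control range, while for Pcna floxed 2 was above it and floxed 3 just below.
The inhibitors overlapped as well, Cdkn1b at 114, 81.0 and 114 CPM in controls and 83.2, 113 and 133 in floxed libraries (0.09 ± 0.26, adjusted p = 0.886), and Cdkn2c at 217, 55.8 and 236 against 145, 253 and 201 (0.24 ± 1.09, adjusted p = 0.929).
E2f2 stood at 107, 98.3 and 80.9 CPM in controls and at 47.0, 198 and 112 in floxed libraries (0.32 ± 0.43, adjusted p = 0.740).
Cdk6 was at 54.7 CPM in floxed 2, its lowest of all 24 libraries, against 374 and 414 in the other floxed libraries.
Outside the 40 genes 0 of 103 were called; Cks2, a CDK-binding subunit, had 0.70 ± 0.21 (adjusted p = 0.137), Cdkn1c 2.88 ± 0.88 (0.139) and Rb1, the retinoblastoma gene, -0.65 ± 0.22 (0.158).
Ube2c, the ubiquitin carrier of the anaphase complex, had 0.67 (adjusted p = 0.189), and the replication genes Gins4 and Dbf4 0.36 and 0.38 (0.246 and 0.294).

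The 6 pairs of sets were compared by testing the difference between their floxed-over-control contrasts, and members were called in 1 pair, VavArid1b minus the MxA2 set.
In that pair 7.35% of all genes were called (4.06% higher), and 3 of the 40 members, all higher: Ccnd1 with a difference of log2 fold changes of 6.96 ± 1.41 (edgeR adjusted p = 0.00963), Ccnd2 with 5.37 ± 1.08 (0.00945) and E2f2 with 2.08 ± 0.62 (0.0470).
The difference of Ccnd1 combined a rise in 1 set with lower values in the other.
The call of E2f2 held in 2 of the 12 fits that each left out 1 library of the pair, without floxed 1 of the VavArid1b set (adjusted p = 0.0224) and without floxed 3 of the MxA2 set (0.0355), whereas Ccnd1 and Ccnd2 were called in all 12.
The S-phase genes had 13 of 13 below 0 in this pair, with a median difference of -0.84, where 54.8% of all genes were below 0; 6 had an unadjusted p under 0.05, against 25.2% of all genes, and 0 were called, Mcm5 having the smallest p (-0.90 ± 0.33, adjusted p = 0.100).
Without floxed 3 of the MxA2 set, Mcm3, Mcm5, Tyms and Rrm2 were called as well (adjusted p from 0.0323 to 0.0467), together with Cdkn2c (difference 5.52, adjusted p = 0.0142), in a fit that called 14.5% of all genes.
Without control 3 of the MxA2 set, Mcm2, Mcm5 and Cdc6 were called (adjusted p from 0.0413 to 0.0477), where 6.37% of all genes were.

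The VavCre sets were not shown to differ from each other in any of the 40 genes, among 0.0142% of genes called, 3 members having an unadjusted p under 0.05 against 9.85% of all genes, with Ccnd3 at 1.19 ± 0.41 (95% interval 0.32 to 2.05, adjusted p = 0.307), Ccnd2 at 2.72 ± 1.04 (95% interval 0.55 to 4.89, adjusted p = 0.351) and E2f2 at 1.49 ± 0.61 (0.20 to 2.78, adjusted p = 0.398).
The mitotic genes, lower by a median of 0.43 in the one and 0.20 in the other, differed by 0.13 at the median, and none was called.
The MxCre sets differed in Ccnd1 by -6.02 ± 1.38 (95% interval -8.92 to -3.12, adjusted p = 0.0676), the MxA2 set minus the MxA1b set, among 0.192% of genes called, with 3 members at an unadjusted p under 0.05 against 17.6% of all genes.
Cdk1 came nearest to a call in the comparison of the VavArid2 set with the MxA1b set (-1.23 ± 0.32, adjusted p = 0.0594, where 1.5% of genes were called, and 10 members had an unadjusted p under 0.05 against 22.6%) and in that of the VavArid1b set with the MxA1b set (-1.11 ± 0.32, 0.0929, where 0.745% were called, and 7 members had an unadjusted p under 0.05 against 19.7%).
In the comparison of the VavArid2 set with the MxA2 set, in which 0.489% of genes were called and 8 members had an unadjusted p under 0.05 against 18.6%, Ccnd1 had 5.0 ± 1.35 (adjusted p = 0.0841) and Tyms -1.27 ± 0.39 (0.114).
Leaving out 1 library brought calls in these pairs: Ccnd1 between the MxCre sets without MxA1b floxed 1 (adjusted p = 0.0193, 9.88% of all genes called) and between the VavArid2 and MxA2 sets without VavArid2 control 3 (0.0102, 1.12%).
Tyms was called in the latter pair without MxA2 floxed 3 (0.0325, 4.65%).
Between the VavArid2 and MxA1b sets Cdk1 was called without MxA1b control 2 (0.0293, 5.11%), floxed 1 (0.0287, 7.36%) or floxed 3 (0.043, 2.89%).
Tyms was also called without MxA1b control 2 (0.0348) and Cenpa without MxA1b floxed 1 (0.0223).

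Ordered by group mean, Ccnd1 ran from 10.2 ± 7.67 CPM (SD, n = 3) in the VavArid1b controls, 10.4 ± 4.53 in the MxA2 floxed libraries and 14.8 ± 10.8 in the MxA1b controls, through 30.2 ± 43.4 in the VavArid2 controls, to 91.0 ± 41.5 in the MxA2 controls, 110 ± 29.9 in the MxA1b floxed libraries, 110 ± 87.3 in the VavArid2 floxed libraries and 144 ± 54.7 in the VavArid1b floxed libraries.
Library values overlapped among the lowest 3 of these groups and among the highest 4, and the group means were not tested against each other across sets.
Ccnd2 ran from 5.34 ± 1.93 CPM in the VavArid1b controls to 139 ± 64.2 in their floxed counterparts, with 61.8 ± 28.0 in the MxA1b floxed libraries and 42.1 ± 47.1 in the VavArid2 floxed libraries next below, and the other 4 groups between 10.7 and 22.9.
Ccnd3 stayed between 251 ± 52.2 and 463 ± 90.6 CPM across the 8 groups, and E2f2 between 46.7 ± 7.02 in the VavArid1b controls and 137 ± 62.5 in the floxed libraries of that set.
E2f2 thus had its lowest group mean in the controls of the set in which it rose, the other 6 groups lying between 70.9 and 119 CPM.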

How the data were processed

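RNA was extracted with TRIzol, selected for polyadenylation and made into directional libraries, per the labels' protocols. The authors deposited whole-number read counts per gene symbol, 1 column per library. Reads were aligned with STAR to mm10, per the submitters' processing notes. Counter, annotation, strand setting and versions: not given in the sources used here. Therefore overlapping genes and members with pseudogene copies (Ccnd3, Pcna, Tyms, Ccnb1, Ccnb2) are uncertain. Column names matched the titles of all 24 libraries, with 0 columns unused. Replicates of a group differed by far more than sampling noise (chi-square per degree of freedom 14.4 to 424).

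Counts were analysed in R 4.3.3 with edgeR 4.0.16: filterByExpr (minimum count 10, total 15) kept 14099 genes, library sizes were scaled by TMM, and a robust quasi-likelihood model with a mean for each of 8 groups was fitted to 24 libraries (16 residual degrees of freedom, common biological coefficient of variation 0.4). P-values were adjusted by the Benjamini-Hochberg method over all genes tested within a contrast, and a gene was called under 0.05. Standard errors follow from the F statistic. Log2 CPM levels used a prior count of 2. RPKM used summed exon lengths of GENCODE M21, merged over all annotated transcripts of a gene, which can exceed the length of the transcript expressed. Alternatives were median-ratio size factors, no filter, DESeq2 1.42.0, voom with sample weights in limma 3.58.1, a fit on each set alone, a Y term, a replicate block, and leaving out libraries. The procedure was tested on simulated data.

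Members and lists were chosen with earlier results of these data known. The rule for the members uses no measured value. Per-library values are given for members called in any set or difference and for the 2 members of each class with the smallest p in each set. Among the other listed genes, called ones or the 2 with the smallest p are named.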

Additional observations from a re-analysis of the deposited data

Results flagged for a closer look

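Ccnd1, Ccnd2 and E2f2 drew attention because their floxed-over-control changes differed between the VavArid1b and MxA2 sets by a test of the difference itself. The difference of log2 fold changes was 6.96 for Ccnd1 (edgeR adjusted p = 0.00963), 5.37 for Ccnd2 (0.00945) and 2.08 for E2f2 (0.047). For Ccnd1 all 3 floxed libraries were above the controls in the former and below them in the latter. The arm with Y-linked reads also differs, all 3 controls in the former and all 3 floxed libraries in the latter. With a Y term Ccnd2 kept its call (8.95, adjusted p = 0.0293), while Ccnd1 had 10.02 (0.0566) and E2f2 0.35 (0.907).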

How the results depend on the processing

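Counts of called genes and members moved with the processing, and causes were not tested. Where a count of members stands without a count or share of all genes, that background is not given, and the count is not read as a result. The replicate numbers are not stated to pair libraries, and same-numbered deviations correlated at -0.217 to 0.259. With the replicate number as a block, calls were 1 gene and 0 members in VavArid1b, 3 genes in VavArid2, 1 gene in MxA2, and 1 gene and 0 members in VavArid1b minus MxA2, with Ccnd2 at 5.26 in VavArid1b and 6.05 in that difference, and Cdkn2c in MxA2 at -1.617. Without the filter, 1 member was called in VavArid1b, 103 genes in VavArid2, 0 genes in MxA1b and 1 member among 8 groups. With the Y term, calls were 101 genes and 1 member in VavArid1b, 104 genes in VavArid2, 0 in MxA2, 2 in MxA1b, 13 genes and 1 member in VavArid1b minus MxA2, 1 member in VavArid2 minus MxA2 and 673 genes among 8 groups, and E2f2 in MxA2 was 0.335. Without the 3 libraries that stand apart, calls were 937 genes (6.54%) and 1 member in VavArid1b, and 1144 genes and 2 members in VavArid2. That fit called 33 genes in MxA2, 8 in MxA1b and 1849 in VavArid1b minus MxA2. It called 10 members in VavArid2 minus MxA2, against 13.9% of all genes, and 1 in VavArid2 minus MxA1b, against 5.15%. Among 8 groups it called 3167 genes and 4 members, while Cdkn2c in MxA2 was -3.035 and Pcna in MxA1b -0.05179. On the 6 libraries of a set, 1030 genes and 11 members were called in VavArid2 and 0 genes in MxA1b. DESeq2 called 1812 genes in VavArid1b, 1103 and 1 member in VavArid2, 221 and 1 in MxA2, 491 and 2 in MxA1b, 1907 genes in VavArid1b minus MxA2, and 1, 2, 2 and 2 members in VavArid1b minus MxA1b, VavArid2 minus MxA2, VavArid2 minus MxA1b and MxA2 minus MxA1b. Voom called 4189 genes and 10 members in VavArid1b, 4679 and 19 in VavArid2, 1202 and 1 in MxA2, 12 genes in MxA1b, 4698 and 17 in VavArid1b minus MxA2, 9521 and 28 among 8 groups, and 6, 2, 22, 5 and 1 members in VavArid1b minus VavArid2, VavArid1b minus MxA1b, VavArid2 minus MxA2, VavArid2 minus MxA1b and MxA2 minus MxA1b, with Cdkn2c at -2.292 in MxA2 and -0.09598 in MxA1b. Leaving out 1 library at a time gave 62 (without floxed 3) to 734 genes and 0 to 2 members in VavArid1b, 15 to 227 genes and 0 to 1 members in VavArid2, 0 to 18 genes in MxA2, 0 to 1535 genes (the highest without floxed 1) and 0 to 3 members in MxA1b, 298 to 2076 genes (the highest without MxA2 floxed 3) and 2 to 8 members in VavArid1b minus MxA2, 0 to 1 members in VavArid2 minus MxA2, 0 to 2 in VavArid2 minus MxA1b and 0 to 1 in MxA2 minus MxA1b. It moved Cdkn2c from -3.035 to 1.545 and Cdkn1b from -0.3608 to 0.1945 in MxA2, and Pcna from -0.06624 to 0.2643, Cdkn1b from -0.07195 to 0.2531 and Cdkn2c from -0.1731 to 0.5575 in MxA1b. In the fit across 24 libraries, with a common coefficient of variation of 0.4, no S-phase or mitotic gene was called in any set, while other fits called some of them.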
